A study of Mus musculus with 2 samples.

Results

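Tubulin isotypes were examined in single testis cells of 2 mice. The 10 genes, 10 of the 51868 rows of the count matrix, were chosen by symbol and comprise 6 alpha-tubulins (Tuba1a, Tuba1b, Tuba3a, Tuba3b, Tuba4a and Tuba8), 2 beta-tubulins (Tubb4b and Tubb5), delta-tubulin (Tubd1) and epsilon-tubulin (Tube1). Each symbol matched 1 row. Testes came from wild-type C57Bl/6J Crl males 8 weeks of age, 1 droplet library per animal, and there was no other condition. Mouse 1 gave 1237 cells with 27450497 unique molecular identifiers (UMIs, each counting 1 captured RNA molecule) and mouse 2 gave 1315 cells with 30302332 UMIs, with no barcode shared between them.

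Microtubules are hollow polymers of paired alpha- and beta-tubulin, and mammals carry several genes, called isotypes, for each partner. Germ cells use microtubules for the meiotic spindles, then for the manchette, a transient sleeve around the nucleus of the elongating spermatid, and for the axoneme, the core of the sperm tail. Delta- and epsilon-tubulin do not build the bulk of microtubules and are known for their part in centrioles. Most alpha-tubulins end in a tyrosine that enzymes remove from the polymer and add back to the free subunit, so the last codon of the coding sequence is a property in which the isotypes can be compared.

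The ends of 4 coding sequences are shown because they divide the alpha-tubulins that lead in spermatocytes from those that lead in elongating spermatids. Each line gives the last 45 bases in GENCODE M21 (GRCm38), 5′ to 3′, with the last codon before the stop in capitals.
Tuba3a: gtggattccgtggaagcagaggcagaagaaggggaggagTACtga
Tuba3b: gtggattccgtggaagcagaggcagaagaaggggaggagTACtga
Tuba4a: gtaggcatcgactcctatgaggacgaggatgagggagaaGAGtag
Tuba8: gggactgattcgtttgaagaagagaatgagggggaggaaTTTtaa
Tuba3a and Tuba3b end in a tyrosine codon, as do Tuba1a and Tuba1b, whereas Tuba4a ends in a glutamate codon and Tuba8 in a phenylalanine codon. Of the 8 mouse alpha-tubulin genes measured, 5 end in a tyrosine codon, the fifth being Tuba1c.

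Tuba3a lies on the minus strand of chromosome 6 (GRCm38, 125278274 to 125286042, 5 exons in the transcript used) and Tuba3b on the plus strand of the same chromosome (145615757 to 145621479, 5 exons). Their coding sequences, 1353 bases each with the stop codon, differed at 41 bases, and all 41 differences left the encoded amino acid the same. The identity of 97.0% was close to that of Tuba1a and Tuba1b (98.3%), whereas the other pairs of alpha-tubulin members had 79.2% to 85.0%. Tuba4a lies on chromosome 1 (75214228 to 75219865, minus strand), Tuba8 on chromosome 6 (121210696 to 121226854, plus strand) and Tubb4b on chromosome 2 (25222160 to 25224702, minus strand). Reads of 98 bases can then match more than 1 gene. Of the 303 windows of this length in the last 400 bases of the transcript, 27.1% of those of Tuba3a also occur in Tuba3b, and 35.6% of those of Tuba3b occur in Tuba3a or the pseudogene Gm5366. For Tuba1a and Tuba1b the shares were 35.0% and 45.9%, for Tubb4b 9.24%, and Tuba4a, Tuba8, Tubb5, Tubd1 and Tube1 had none. The levels of Tuba3a, Tuba3b, Tuba1a and Tuba1b are uncertain for this reason, since reads from shared windows may be left out or placed on the other gene. The paper states that transposon reads mapping to several places would otherwise have been excluded. Reads shared between genes, if excluded likewise, would make these levels too low. The shares of windows do not measure the error in UMIs. The effect of shared windows on the shares of alpha-tubulin UMIs was not tested.

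Since Tuba3a and Tuba3b moved together in the cells, the stretch upstream of their RefSeq transcription starts that aligns without a gap is also given (RefSeq, GRCm38.p6, 84 bases, 5′ to 3′ on the gene's strand, the motif CCAAT in capitals). It covers chr6:125286140-125286223 on the minus strand for Tuba3a, 142 to 59 bases before the start, and chr6:145615834-145615917 on the plus strand for Tuba3b, 129 to 46 bases before it. In GENCODE M21 the Tuba3b gene begins earlier, at 145615757, so by that annotation its stretch lies within the gene.
Tuba3a: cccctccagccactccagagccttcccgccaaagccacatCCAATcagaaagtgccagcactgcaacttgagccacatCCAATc
Tuba3b: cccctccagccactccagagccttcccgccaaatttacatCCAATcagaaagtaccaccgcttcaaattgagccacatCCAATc
The stretches share 76 of 84 bases (90.5%) and hold CCAAT at the same 2 places. They were chosen because they span the 3 identical runs of at least 12 bases, and over the whole windows the identity was 60.9% in an alignment with gaps. Over the whole promoter window, from 250 bases before to 50 bases after the start, Tuba3a had 3 and Tuba3b 2 matches to CCAAT on either strand, Tubb4b had 5, Tubb5, with few UMIs in germ cells, had 2, Tuba1a and Tube1 had 1 each, and Tuba4a, Tuba8, Tuba1b and Tubd1 had none of these letters. At least 2 matches were found in 11.7% of all 32851 RefSeq promoter windows and at least 5 in 0.271%. A match is a run of letters and says nothing about binding.

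To follow the isotypes through spermatogenesis, cells were grouped by K-means clustering from which the 10 members and their partner genes were left out, so that the groups do not rest on the values compared. Of 9 clusters, 6 held at least 50 germ cells in each mouse. These were early spermatocyte-like cells (53 in mouse 1 and 111 in mouse 2, with 8 of 12 markers above 1.5 times the level of all cells), pachytene or later spermatocyte-like cells (307 and 219, 7 of 10 markers), an unnamed cluster led by Ssxb3 and Ssxb1 (309 and 380, only 1 of 10 markers of round spermatids, its best class), round spermatid-like cells (189 and 259, 8 of 10), and 2 clusters of elongating or condensing spermatid-like cells, with lower Prm1 (86 and 107, 12 of 12) and with higher Prm1 (284 and 230, 12 of 12). Prm1 encodes protamine 1, which packs the sperm chromatin. The score of the lower-Prm1 cluster was 0.917 for its own class and 0.831 for round spermatids. The clusters are called early, pachytene, unnamed, round, lower-Prm1 and higher-Prm1 below, and early and pachytene cells are called spermatocytes and the last 3 clusters spermatids, the last 2 of them elongating, in each case for cells like these. Sertoli-like (6 and 1 cells), Leydig-like (1 and 4) and spermatogonium-like cells (2 and 4) were too few for a test. Levels below are UMIs of the gene for every 1000000 UMIs of the cluster (CPM), given as mouse 1 and mouse 2. A library in this droplet method counts molecules at the 3′ end, so CPM is not divided by transcript length. Comparisons between genes are also given per kilobase, only to show how far they depend on length. For counts at the 3′ end the per-kilobase values are not the better measure.

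The dominant alpha-tubulin RNAs of spermatocyte cells, Tuba3a and Tuba3b, gave way to Tuba4a and Tuba8 between round and elongating spermatid cells. Tuba3a and Tuba3b together made up 98.8% of all alpha-tubulin UMIs in early cells (95% binomial interval 98.6 to 98.9), 98.7% in pachytene cells, 98.4% in the unnamed cluster and 93.7% in round cells. The share was 29.1% (28.0 to 30.2) in the lower-Prm1 and 22.9% (21.9 to 24.0) in the higher-Prm1 cluster. Tuba4a and Tuba8 took the opposite course, from 0.529% in early to 5.68% in round cells and 65.9% and 69.5% in the lower-Prm1 and higher-Prm1 clusters. With UMIs divided by transcript length, Tuba4a and Tuba8 still held 56.9% and 60.9% of the alpha-tubulin signal in these last 2 clusters. Tuba4a alone had 277 against 233 CPM for Tuba3a in the lower-Prm1 cluster with both mice pooled, the 2 being nearly equal in mouse 1. Divided by length the order turned, at 97.5 against 154 CPM per kilobase, where Tuba8 had 275. In the higher-Prm1 cluster Tuba4a had 97.5 against 69.0 CPM per kilobase for Tuba3a. These intervals cover counting error only. The Tuba3 pair had the larger share in both mice in the first 4 clusters and the smaller in both mice in the last 2.

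**Figure D1:**
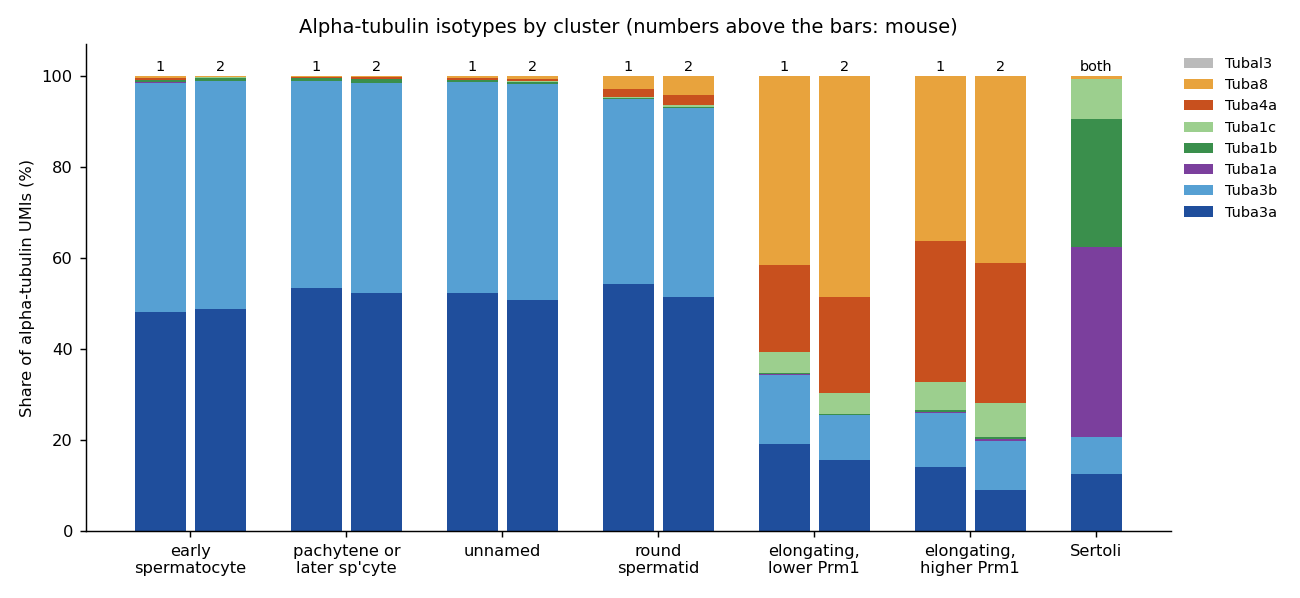
Share of alpha-tubulin UMIs (%) taken by each of 8 alpha-tubulin genes, in stacked bars for each mouse in the 6 germ cell clusters and for both mice pooled in 7 Sertoli-like cells. With both mice pooled, Tuba3a and Tuba3b hold 98.4% to 98.8% up to the unnamed cluster and 22.9% to 29.1% in the 2 elongating clusters, where Tuba4a and Tuba8 take most of the rest.

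Grouped by the last codon, the alpha-tubulin UMIs of spermatocyte cells came almost entirely from genes ending in a tyrosine codon, and those of elongating spermatid cells mostly did not. UMIs from genes with a final tyrosine codon made up 99.1% and 99.6% of alpha-tubulin UMIs in early cells and 95.3% and 93.5% in round cells. Lower-Prm1 cells had 39.4% and 30.4%, and higher-Prm1 cells 32.8% and 28.1%. Per kilobase of transcript these last shares were 48.7% and 39.0%, and 42.1% and 36.0%. Sertoli-like cells, with 168 alpha-tubulin UMIs in all, had 99.4%. The genes without a tyrosine codon are Tuba4a, Tuba8 and Tubal3, the last with 52 UMIs in all, so these shares restate those above. Tuba1c, which ends in a tyrosine codon, did not follow the Tuba3 pair. With both mice pooled it had 3.87 CPM in round cells and 63.2 and 60.5 CPM in the lower-Prm1 and higher-Prm1 clusters. The counts describe RNA, and neither the protein nor its modification was measured.

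Tuba3a had 2000 and 1867 CPM in early cells, 1809 and 1500 CPM in pachytene cells and 1491 and 1310 CPM in the unnamed cluster. It had 903 and 818 CPM in round cells, 252 and 219 CPM in the lower-Prm1 cluster and 120 and 86.3 CPM in the higher-Prm1 cluster. By CPM both mice gave the same descending order. With TMM scaling, described below, early and pachytene cells did not differ (log2 difference 0.04, adjusted p = 0.84, edgeR). Tuba3b had 2090 and 1919 CPM in early cells, 1541 and 1320 in pachytene, 1319 and 1221 in the unnamed cluster, 675 and 660 in round cells, 200 and 140 in the lower-Prm1 and 102 and 101 in the higher-Prm1 cluster. Its order by CPM was the same in both mice, though pachytene cells of mouse 2 and unnamed cells of mouse 1 were nearly equal. The pair contributed nearly alike, Tuba3a making up 46.2% to 61.0% of their joint UMIs over the 12 combinations of cluster and mouse.

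Tuba4a, an isotype also known from muscle, heart and platelets, had 19.2 and 7.43 CPM in early cells, 5.56 and 7.11 CPM in pachytene cells, 14.1 and 15.6 CPM in the unnamed cluster and 30.8 and 37.5 CPM in round cells. It reached 251 and 295 CPM in the lower-Prm1 and 264 and 292 CPM in the higher-Prm1 cluster. The elongating clusters stood above all earlier ones in both mice and overlapped with each other. Tuba8 had 17.4 and 6.19 CPM in early cells, 6.91 and 8.72 in pachytene, 9.53 and 14.6 in the unnamed cluster, 46.9 and 64.9 in round cells, 546 and 679 in the lower-Prm1 and 309 and 388 in the higher-Prm1 cluster. Unlike Tuba4a, it had a higher CPM in the lower-Prm1 than in the higher-Prm1 cluster in both mice. The early values of mouse 1 rest on few cells, with 21 Tuba4a UMIs in 9 cells and 19 Tuba8 UMIs in 6 cells of 53. In mouse 2, 18 and 15 UMIs were spread over 17 and 14 cells of 111.

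The change was seen in single cells as well. After thinning each cell to 5000 UMIs, Tuba8 was found in 18.0% and 22.0% of round cells and in 89.5% and 95.3% of lower-Prm1 cells, and Tuba4a in 11.1% and 13.9% and in 73.3% and 82.2%. Tuba3a was found in 96.3% and 98.5% of round cells and in 46.8% and 37.0% of higher-Prm1 cells. The other elongating cluster gave a smaller change from round cells for each of these genes. As the mean of both mice after thinning, Tuba8 was found in 56.2% and Tuba4a in 75.3% of higher-Prm1 cells. Tuba3a was found in 60.4% of lower-Prm1 cells. Without thinning, where depth differs between clusters, Tuba3a was found in 73.9% and 61.3% of higher-Prm1 cells. Per cell, Tuba3a fell from a mean of 61.4 and 51.0 UMIs in pachytene cells to 1.52 and 1.18 in higher-Prm1 cells, and Tuba8 had 13.1 and 17.8 UMIs in lower-Prm1 and 3.92 and 5.30 in higher-Prm1 cells.

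Tubb4b, the beta-tubulin of most motile cilia and of the sperm tail, made up 98.2% to 99.9% of the UMIs of the 7 beta-tubulins counted here in each of the 6 clusters. It had 1490 and 1570 CPM in early cells, 1721 and 1916 in pachytene, 2005 and 2287 in the unnamed cluster, 2037 and 2346 in round cells, 1705 and 1971 in the lower-Prm1 and 1480 and 1711 in the higher-Prm1 cluster. By CPM these levels stayed within a narrow range compared with the alpha-tubulins. With TMM scaling, described below, Tubb4b was 3.32-fold higher in higher-Prm1 than in early cells. Per cell it had a mean of 61.8 UMIs in pachytene and 21.1 in higher-Prm1 cells. Per kilobase of transcript, Tubb4b had 1128 CPM against 1113 for Tuba3a in pachytene cells of both mice pooled, and 994 CPM against 153 for Tuba8 in higher-Prm1 cells. The ratio of alpha- to beta-tubulin UMIs was 2.78 and 2.43 in early cells, 0.810 and 0.673 in round cells, 0.758 and 0.698 in the lower-Prm1 and 0.570 and 0.545 in the higher-Prm1 cluster. Early cells had the highest and higher-Prm1 cells the lowest ratio of these in both mice, whereas lower-Prm1 cells lay below round cells in mouse 1 and above them in mouse 2.

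**Figure D2:**
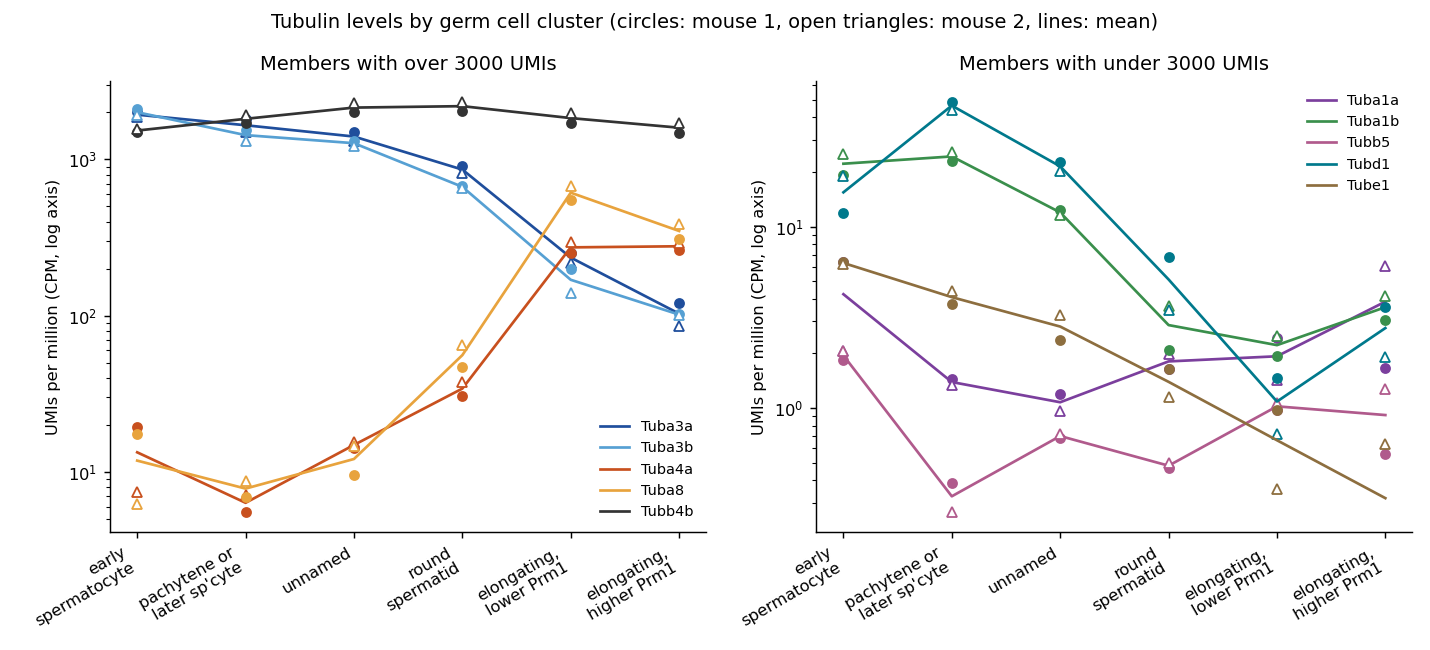
Level of each member (CPM, log axis) in the 6 germ cell clusters, with circles for mouse 1, open triangles for mouse 2 and lines for the mean of both. The mean lines of Tuba3a and Tuba3b cross those of Tuba4a and Tuba8 between round and elongating spermatid cells. In the lower-Prm1 cluster of mouse 1, Tuba4a and Tuba3a were nearly equal, at 251 and 252 CPM. Tubb4b stays between 1480 and 2346 CPM. Tube1 had no UMI in mouse 1 in the last cluster, which a log axis cannot show.

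Delta-tubulin, Tubd1 on chromosome 11, had its highest level in pachytene cells in both mice. It had 11.9 and 19.0 CPM in early cells, 48.9 and 44.0 in pachytene, 22.8 and 20.2 in the unnamed cluster and 6.76 and 3.47 in round cells. In the lower-Prm1 and higher-Prm1 clusters it had at most 3.61 CPM. Epsilon-tubulin, Tube1 on chromosome 10, was low throughout, with 156 UMIs in all cells. It had 6.41 and 6.19 CPM in early cells, 3.74 and 4.43 in pachytene, 2.38 and 3.24 in the unnamed cluster and 1.63 and 1.16 in round cells. In the higher-Prm1 cluster no UMI was found in mouse 1, which allows up to 0.832 CPM, and 2 UMIs in mouse 2. Tuba1b, a widely expressed alpha-tubulin on chromosome 15, had 19.2 and 25.2 CPM in early cells, 23.1 and 25.6 in pachytene, 12.4 and 11.5 in the unnamed cluster, and between 1.94 and 4.14 CPM in the 3 later clusters. The values of the first 2 clusters lay above those of all others in both mice.

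Tuba1a and Tubb5, isotypes known from neurons and dividing cells, had their highest levels in Sertoli-like cells. Of the 176 Tuba1a UMIs, 70 (39.8%) came from the 7 Sertoli-like cells, and of the 87 Tubb5 UMIs, 41 (47.1%) came from these cells and 6 from the 6 spermatogonium-like cells. In Sertoli-like cells, which nurse the germ cells in the tubule, Tuba1a had 826 CPM (95% Poisson interval 644 to 1043), Tuba1b 554 CPM and Tubb5 484 CPM (347 to 656). These values rest on mouse 1, which gave 6 of the 7 cells, and Tuba1a had 923 CPM there against 245 CPM, from 3 UMIs, in the 1 cell of mouse 2. Tuba1a made up 41.7% and Tuba1b 28.0% of their alpha-tubulin UMIs. In the 6 germ cell clusters, Tuba1a had between 0.960 and 6.41 CPM and Tubb5 between 0.268 and 2.06 CPM. Spermatogonium-like cells had 76 Tuba3a, 44 Tuba3b and 168 Tubb4b UMIs. The Tuba3 pair made up 98.4% of their alpha-tubulin UMIs (94.2 to 99.8).

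Somatic cells were used to look for background from free RNA in the droplets. Sertoli-like cells, which should lack germ cell products, had 248 CPM of Tuba3a and 165 CPM of Tuba3b, or 21.3% and 16.1% of the level over all cells. Prm1 and Tnp1, both spermatid products, stood at 19.1% and 18.1% of their level over all cells there. Tubb4b stood at 21.4%, with 413 CPM, close to these spermatid products. The median depth of these cells was 12039 UMIs. In Leydig-like cells Prm1 stood at 15.8%, Tuba3a at 1.70% and Tuba3b at 3.85%, from 1 and 2 UMIs. The 2 somatic groups thus gave unlike values for the Tuba3 pair at similar values for Prm1. No background level of the pair was established. In both elongating clusters Tuba3a and Tuba3b were near or below the level in Sertoli-like cells. Depth differed, with medians of 23995 UMIs in lower-Prm1 and 11718 in higher-Prm1 cells. How much of the pair's remaining RNA belonged to the spermatids was not tested. Tuba4a had no UMI in Sertoli-like cells, which allows up to 35.4 CPM, and Tuba8 had 1, so the values of both in elongating spermatid cells were above the Sertoli-like level. In pachytene cells Tuba8 stood at 7.03% and Tuba4a at 9.11% of their level over all cells, against 9.70% for Prm1 and 9.19% for Tnp1. In early cells these shares were 8.87%, 16.3%, 14.1% and 14.6%. How much of the Tuba4a and Tuba8 RNA in spermatocyte cells was background was not tested.

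The levels were compared with edgeR's quasi-likelihood test on the 12 sums of UMIs, 1 per cluster and mouse, with TMM scaling, which sets a factor per sum so that most genes show little change, and Benjamini-Hochberg adjustment over 14143 genes. Between the spermatid clusters (round, lower-Prm1 and higher-Prm1) and the spermatocyte clusters (early and pachytene), 9 of the 9 members tested passed an adjusted p of 0.05, 4 higher and 5 lower in spermatids. Of all genes 84.9% were called (42.2% higher, 42.8% lower), so being called says little by itself, and the sizes carry the comparison. Tubb5 had too few UMIs to be tested. Tuba8 had a log2 fold change of 5.67 (SE 0.19, adjusted p = 1.1e-17, edgeR), or 50.8-fold, and Tuba4a of 4.98 (SE 0.16, adjusted p = 3.6e-18, edgeR), or 31.7-fold. Both sizes rest on spermatocyte levels that, as shares of the level over all cells, were near those of Prm1 and Tnp1. The sizes are uncertain to that extent. Tuba3b fell by 1.94 on the log2 scale (SE 0.10, adjusted p = 1.5e-14, edgeR) and Tuba3a by 1.73 (SE 0.10, adjusted p = 2.7e-13, edgeR). Tubd1 fell by 2.54 and Tuba1b by 2.06 on the log2 scale, and Tube1 was 4.01-fold lower. Tube1 had at most 1.63 CPM in any spermatid sum and could pass the filter on low counts only through earlier clusters. Its direction was thus fixed by the filter. Tubb4b had a log2 fold change of 1.13 and Tuba1a of 1.03 (adjusted p = 0.023, edgeR). The call of Tuba1a was lost without any of 6 sums, among them mouse 2 of the early cluster (0.43, adjusted p = 0.38, edgeR) and mouse 2 of the higher-Prm1 cluster (0.64, adjusted p = 0.16, edgeR). It was also lost without the called doublets (0.82, adjusted p = 0.056, edgeR) and with the unnamed cluster counted among the spermatids (0.56, adjusted p = 0.18, edgeR). Without the doublets the median of all genes moved as well, from -0.06 to -0.26.

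The values depend on the scaling. TMM factors ran from 1.65 in early to 0.488 in higher-Prm1 cells. The median log2 fold change of all genes was -0.06 with TMM, -1.01 with UMI totals and -1.46 with UMIs per cell, and the share of higher genes among those called was 49.6%, 36.4% and 32.1%. Tuba4a and Tuba8 were higher and Tuba3a, Tuba3b, Tuba1b, Tubd1 and Tube1 lower in spermatids under all 3 scalings, Tuba8 by 4.70 and 4.24 and Tuba4a by 4.02 and 3.56 on the log2 scale with UMI totals and UMIs per cell. Tuba3a fell by 2.70 and 3.15 in these. For Tubb4b the direction depended on the scaling, with a log2 fold change of 0.16 by UMI totals (adjusted p = 0.091, edgeR) and -0.29 by UMIs per cell (adjusted p = 0.015, edgeR). The value of Tuba1a was 0.08 and -0.37, neither of which passed.

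**Figure D3:**
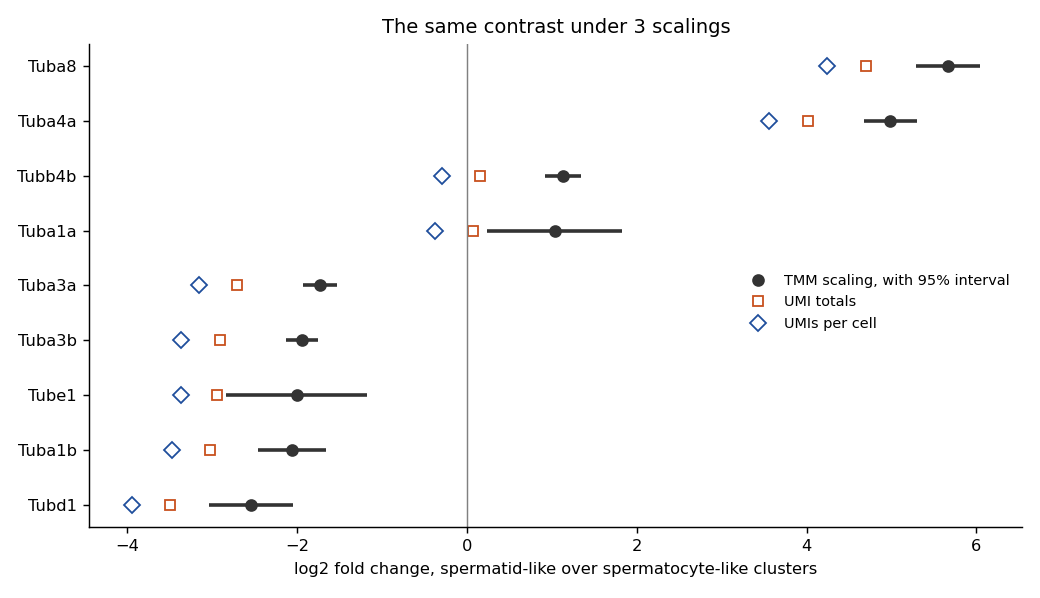
Log2 fold change of each tested member between spermatid and spermatocyte clusters, with TMM scaling (filled circles with approximate 95% intervals), UMI totals (open squares) and UMIs per cell (open diamonds). Tuba8 and Tuba4a stay to the right of 0 and the Tuba3 pair, Tube1, Tuba1b and Tubd1 to the left under each scaling, while Tubb4b and Tuba1a cross it.

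From early to pachytene cells, 2 of 9 members were called, both higher, against 50.1% of all genes (25.5% higher, 24.6% lower). Tubd1 had a log2 fold change of 1.74 (SE 0.26, adjusted p = 7.4e-06, edgeR) and was higher under each of the 3 scalings. Tubb4b had 0.51 (SE 0.16, adjusted p = 0.010, edgeR), with 0.25 by UMI totals (adjusted p = 0.13, edgeR) and 0.50 without mouse 2 of the pachytene cluster (adjusted p = 0.051, edgeR). The difference of Tuba3a was 0.04 with a 95% interval from -0.26 to 0.35, and that of Tuba3b -0.22 with an interval from -0.51 to 0.07. Both depended on the scaling, Tuba3a having 0.46 by UMIs per cell (adjusted p = 0.011, edgeR) and Tuba3b -0.49 by UMI totals (adjusted p = 0.0069, edgeR) and 0.20 by UMIs per cell. By UMI totals 1 member was called higher (Tubd1) and 2 lower (Tuba3b and Tuba4a), and by UMIs per cell 4 were called higher. Of all 14143 genes, 2838 were called higher and 4431 lower by UMI totals, and 4910 and 2164 by UMIs per cell. With DESeq2 these were 2562 and 4349. With DESeq2 Tubd1 was called higher, and Tuba3b (-0.52, adjusted p = 0.0011, DESeq2) and Tuba4a (-0.93, adjusted p = 0.015, DESeq2) lower. Tubb4b was not called by DESeq2 (0.22, adjusted p = 0.23, DESeq2).

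From pachytene to round cells, 8 of 9 members were called, 3 higher and 5 lower, against 75.7% of all genes (37.3% higher, 38.4% lower). By UMI totals and by UMIs per cell 2 were higher and 5 lower, Tubb4b not being called. Of all 14143 genes, 4805 were called higher and 6492 lower by UMI totals, and 4117 and 7905 by UMIs per cell. Tuba8 rose by a log2 fold change of 3.17 (SE 0.25, adjusted p = 1.2e-10, edgeR) and Tuba4a by 2.76 (SE 0.22, adjusted p = 1.3e-10, edgeR). Tubd1 fell by 2.93 and Tuba1b by 2.71, whereas the Tuba3 pair fell by 0.64 and 0.79 and Tube1 by 1.25. With DESeq2 the value of Tube1 was -1.14 and did not pass (adjusted p = 0.061, DESeq2). Tubb4b had 0.58 with TMM scaling, 0.27 with UMI totals and -0.29 with UMIs per cell, and with TMM scaling its call was lost without any of 5 sums (0.27 to 0.40). The call was also lost without the called doublets (0.30, adjusted p = 0.12, edgeR) and stood with DESeq2 (0.71). The median of all genes moved too, from -0.11 to -0.39 without the doublets and to between -0.38 and -0.41 without any of these 5 sums. Tube1 lost its call without mouse 2 of the pachytene cluster (adjusted p = 0.052, edgeR) or of the round cluster (adjusted p = 0.15, edgeR).

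From round to elongating cells, 6 of 9 members were called, 4 higher and 2 lower, against 58.0% of all genes (26.2% higher, 31.8% lower). The balance depended on the scaling, with 2 higher (Tuba4a and Tuba8) and 5 lower both by UMI totals and by UMIs per cell. The lower ones were the Tuba3 pair, Tubb4b, Tubd1 and Tube1. Of all 14143 genes, 2055 were called higher and 7681 lower by UMI totals, and 1677 and 8926 by UMIs per cell. The median log2 fold change of all genes was -0.97 and -1.31, so genes in general shifted downward under both. Tuba8 rose by a further 3.84 (SE 0.21, adjusted p = 6.6e-13, edgeR) and Tuba4a by 3.81 (SE 0.18, adjusted p = 5.7e-14, edgeR). The Tuba3 pair fell by 1.67 (Tuba3a, SE 0.13) and 1.55 (Tuba3b, SE 0.13). Tuba1a had a log2 fold change of 1.32 whose call was lost without either mouse of the round or lower-Prm1 cluster, or without mouse 2 of the higher-Prm1 cluster, where it had 19 UMIs (0.70, adjusted p = 0.32, edgeR). Tubb4b had 0.45 with TMM scaling but fell by 0.36 with UMI totals (adjusted p = 0.0087, edgeR) and by 0.70 with UMIs per cell, and its call with TMM scaling was lost without any of 3 sums (0.32 to 0.35). Tubd1 and Tube1 had values of -0.72 and -0.84 that did not pass with TMM scaling. By UMI totals they fell by 1.51 (adjusted p = 0.0032, edgeR) and 1.60 (adjusted p = 0.049, edgeR), and by UMIs per cell by 1.85 and 1.91.

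Each member's clusters were also put in order of their TMM-scaled level, and 18 of the 45 pairs of neighbours in the 9 orders differed. The share of all genes called between 2 clusters was 50.1% for early and pachytene, 70.2% for early and unnamed, 62.3% for pachytene and unnamed, 45.7% for unnamed and round, and 39.7% for the lower-Prm1 and higher-Prm1 clusters. It was 77.9% and 75.7% for round cells against early and pachytene cells. For the lower-Prm1 cluster it was 80.1%, 76.9%, 62.1% and 43.9%, and for the higher-Prm1 cluster 76.8%, 76.0%, 66.7% and 58.3%, against early, pachytene, unnamed and round cells in turn. For Tuba4a the order ran from higher-Prm1 through lower-Prm1, round, unnamed and early to pachytene cells, and each neighbour differed except the last pair (adjusted p = 0.12, edgeR). With UMIs per cell the 2 elongating clusters changed places, at 6.02 and 7.73 UMIs in lower-Prm1 and 3.35 and 3.99 in higher-Prm1 cells. For Tuba8 the elongating clusters did not differ with TMM scaling (log2 difference 0.22, SE 0.20, adjusted p = 0.42, edgeR) and did with UMIs per cell (1.75, adjusted p = 1.0e-06, edgeR). For Tuba3a and Tuba3b the first 3 clusters in order did not differ from their neighbours, and the steps from the unnamed cluster to round and from round to lower-Prm1 cells did. For Tubd1 the pachytene cluster stood above its neighbour by 1.06 (SE 0.21, adjusted p = 1.2e-04, edgeR). For Tubb4b the TMM-scaled order put higher-Prm1 cells first, unlike the CPM, and 1 pair of neighbours differed, pachytene and early cells. With the mouse as a block 4 of its 5 pairs differed, all but lower-Prm1 and round cells. For Tube1 no neighbours differed.

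Along diffusion pseudotime, an ordering of 2534 germ cells computed without the members and divided into 20 bins, Tuba4a and Tuba8 went from low to near their highest levels over bins 13 to 15 in both mice. In bin 13, where round cells were most frequent, Tuba8 had 12.9 and 18.5 CPM and Tuba4a 9.09 and 19.2 CPM. In bin 14 Tuba8 had 92.7 and 87.0 CPM and Tuba4a 53.1 and 53.8 CPM, and in bin 15 they had 404 and 512 CPM and 214 and 230 CPM. Tuba3a had 917 and 868 CPM in bin 13, 692 and 645 in bin 14 and 350 and 352 in bin 15. Tuba8 was highest in bin 16 in both mice, Tubb4b in bin 12, and Tubd1 in bin 4 in mouse 1 and bin 5 in mouse 2. The ordering did not separate the 2 elongating clusters, whose median pseudotimes were 0.908 (lower Prm1) and 0.905 (higher Prm1), so the order of the last bins cannot be read as time.

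**Figure D4:**
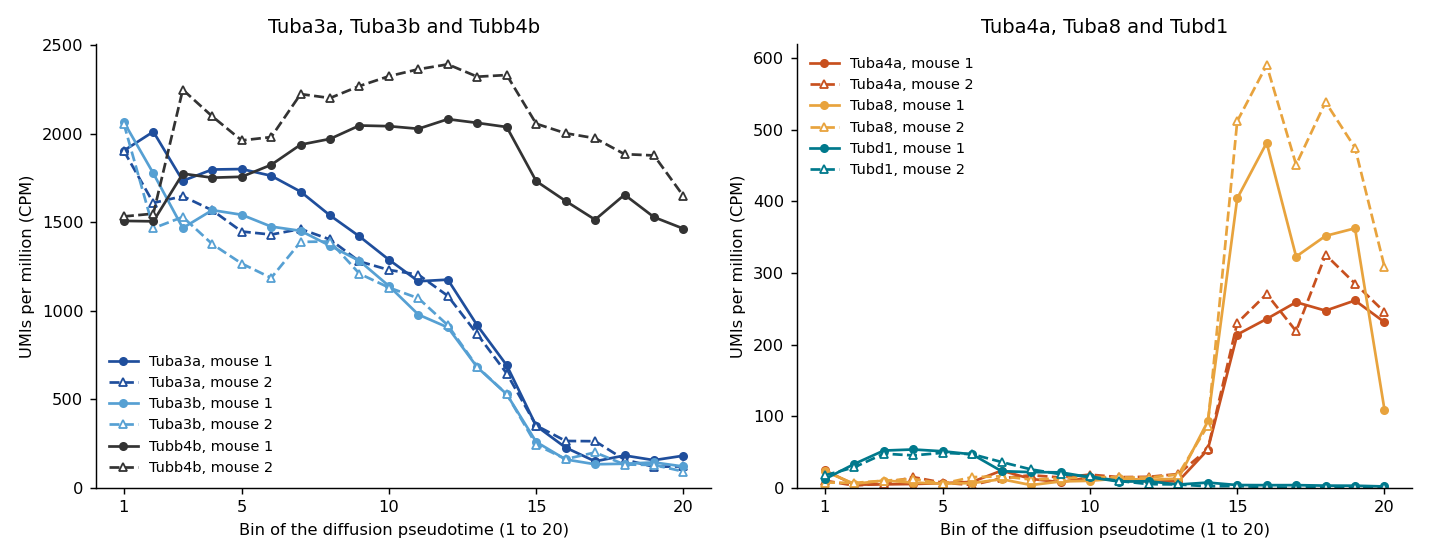
Level (CPM) in 20 bins of diffusion pseudotime, with filled circles and solid lines for mouse 1 and open triangles and dashed lines for mouse 2. Tuba3a and Tuba3b decline from the first bins, while Tuba4a and Tuba8 stay below 20 CPM in bin 13 and reach 214 to 512 CPM in bin 15. Tubb4b is higher in mouse 2 in 20 of 20 bins.

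Some members differed between the mice in the same direction in every cluster. How many of all genes did so was not counted, so the counts below give no result about the tubulins. Tubb4b was higher in mouse 2 in 6 of 6 germ cell clusters, 1.05 to 1.16 times. Tuba3a and Tuba3b were lower in mouse 2 in 6 of 6, at 0.722 to 0.933 and 0.700 to 0.983 times the level of mouse 1. Tuba4a and Tuba8 were higher in mouse 2 in 5 of 6, the early cluster being the exception. In clusters with enough UMIs in each mouse, Tuba1b was higher in mouse 2 in 3 of 4 and Tubd1 in 1 of 4. Tube1 was higher in 2 of 2 and Tuba1a in 0 of 1. With 1 animal on each side and each animal its own library, animal and library cannot be told apart and no test was possible.

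Partner genes of tubulin were taken from lists covering 9 other tubulins, not the whole family, and the proteins that fold, nucleate, modify and sever it. The counts below are for spermatid against spermatocyte clusters with TMM scaling, where 84.9% of all genes were called and their median log2 fold change was -0.06. Over all lists 36 genes rose and 34 fell, against 21 and 49 by UMI totals and 20 and 54 by UMIs per cell. Of all 14143 genes, 4564 rose and 7964 fell by UMI totals, and 4048 and 8562 by UMIs per cell. Of 5 other tubulins tested, 5 rose and 0 fell, with a median of 4.80. However, Tuba1c, Tubb2a, Tubb3 and Tubg2 had at most 2.11 CPM in any spermatocyte sum. They could pass the filter on low counts only through later clusters. Their direction was thus fixed by the filter, and the count says nothing about the family. The same limit holds for Ttll2, Haus7, Haus3 and Cetn2 below, which could not pass on their low side alone. Among them Tuba1c, the remaining widely expressed alpha-tubulin, rose by 4.80 on the log2 scale (SE 0.22, adjusted p = 2.5e-15, edgeR), from between 1.24 and 2.11 CPM in the spermatocyte clusters to between 53.0 and 69.1 CPM in the elongating clusters, where it held 4.63% and 6.75% of alpha-tubulin UMIs. Tubg1, a gamma-tubulin that nucleates microtubules, rose by 2.24 (SE 0.16, adjusted p = 1.9e-11, edgeR).

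Of 13 folding genes tested, 6 rose and 6 fell (median 0.35). Arl2 and Tbce, which act in the assembly of the alpha-beta pair, rose by 2.40 and 1.40 on the log2 scale, and both had their highest CPM in round cells, at 70.4 and 71.8 CPM and 44.8 and 46.1 CPM. For Tbce the value was 0.00 with UMIs per cell. Pfdn2 and Pfdn4, subunits of prefoldin, which hands unfolded tubulin to the chaperonin, fell by 3.76 and 3.04. Pfdn2 had 263 and 199 CPM in early and 5.83 and 4.62 CPM in round cells.

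Of 17 genes of the gamma-tubulin ring complex and its recruitment tested, 4 rose and 10 fell (median -0.49). Tubg1 and Tubg2, already counted among the other tubulins, were among the 4 that rose. The direction of Tubg2 was fixed by the filter. Haus7 and Haus2, subunits of augmin, which starts new microtubules on existing ones, rose by 4.56 and 3.11, with their highest CPM in the lower-Prm1 cluster (42.2 and 48.2 CPM for Haus7). Haus3, a subunit of the same complex, fell by 3.13, and Tubgcp4, a ring complex protein, fell by 1.60. The directions of Haus7 and Haus3 were fixed by the filter, and the genes named were the largest changes in each direction. Opposite directions among them thus say nothing about the complex.

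Of 27 genes for tubulin modification tested, 17 rose and 5 fell (median 0.75). Ttll8 and Ttll2, of the family of tubulin tyrosine ligase-like enzymes, which add amino acids to tubulin tails, rose by 5.71 (SE 0.17, adjusted p = 1.3e-18, edgeR) and 5.54 (SE 0.23, adjusted p = 4.3e-16, edgeR). The direction of Ttll2, counted among the 17 that rose, was fixed by the filter. Ttll8 had 47.6 and 43.7 CPM in round cells and 117 and 108 CPM in the lower-Prm1 cluster. Agbl2, a carboxypeptidase that trims tubulin tails, fell by 2.66, from 84.3 and 94.6 CPM in early to 10.5 and 10.2 CPM in round cells. Lrrc49, a component of a tubulin polyglutamylase complex, fell by 2.09 and had its highest CPM in the unnamed cluster (93.3 and 93.6 CPM).

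Of 8 severing and sequestering genes tested, 3 rose and 4 fell (median -0.37). Katnal1, of the microtubule-severing katanin family, rose by 0.91 with TMM scaling, but the value was -0.06 with UMI totals and -0.51 with UMIs per cell. Stmn1, stathmin, which binds free tubulin pairs, fell by 3.27 (SE 0.10, adjusted p = 9.6e-19, edgeR), from 1235 and 1029 CPM in early to 52.5 and 42.3 CPM in round cells. Fignl1 fell by 3.41.

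Of 12 further centriole genes tested, 3 rose and 9 fell (median -0.76). Tubd1 fell as well, and so did Tube1, whose direction was fixed by the filter. Cetn2, centrin 2, rose by 3.48 and Cep63 by 0.48, the latter with -0.49 by UMI totals and -0.94 by UMIs per cell. The filter fixed the direction of Cetn2 too. Poc5 fell by 2.48, with its highest level in pachytene cells (84.1 and 77.9 CPM), and Cenpj fell by 1.42.

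The genes whose levels over the 12 sums were most like a member's were found by Pearson's r of log2(CPM + 10) among 8017 genes. The sums share libraries and a common course of depth, and r is given as a description. For Tuba3a they were Hspa2 (0.997), a chaperone of meiotic cells, Smim8 (0.996) and Rpl10l (0.996), and for Tuba3b Rsrc1, Cct8 and Supt5, all at 0.996. For Tuba8 they were Fbxo39 (0.997), Lrrc69 and Cst13 (0.994 each), and for Tuba4a Thegl and Snn (0.995 each) and 4921507P07Rik (0.993). Hspa2 and Cst13 were themselves among the markers that named clusters, of pachytene or later spermatocytes and of round spermatids. How many genes had an r this high is not given. Tubd1 was most like Trim33 (0.989) and 4932431P20Rik and Pigo (0.988 each), and Tuba1b most like Fancg (0.991), Cyb561d2 and Golga1 (0.987 each). For Tubb4b the closest were RP24-491I24.2 (0.939), Gpank1 (0.918) and Mtx1 (0.917), lower than the closest genes of the other 6 members with at least 500 UMIs.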

How the data were processed

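Testis cells of 2 mice were measured with droplet single-cell RNA sequencing. According to the labels and the study's methods, the authors demultiplexed with bcl2fastq 2.17.1.14, counted with Cell Ranger 2.0.0 against a repeat-masked GRCm38 genome with Ensembl annotation plus repeat sequences, and combined both animals after downsampling reads. The deposited values are raw UMI counts per gene and cell, without further normalization. The barcode ending was taken as the mouse. All 2552 cells were kept (7114 to 154431 UMIs, medians 17871 and 19184), including 25 called as doublets.

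Members and lists were chosen with earlier results of these data known. Cells were clustered with K-means (K = 9, seed 42) on 10 principal components without the 102 member and list genes. A cluster kept a name where at least 3 markers had 1.5 times the CPM of all cells. UMIs were summed per cluster and mouse and tested with edgeR 4.0.16 (filterByExpr, TMM, quasi-likelihood, all 12 sums in 1 fit), with DESeq2 1.42.0 as an alternative. Residual spread comes from 2 animals of 1 condition. In a simulation of the spermatid against spermatocyte comparison on 12513 genes, edgeR recovered 190 of 200 genes changed 4-fold, with 9 false calls. Only these 200 genes were changed there, whereas 84.9% of all genes were called in the data. Recovery with so many changed genes was not tested, nor were false calls. Sums with the same number come from the same animal. Over 14143 genes, deviations from the cluster means correlated between clusters of 1 mouse at 0.018 to 0.231 (15 pairs of clusters), and the mouse was fitted as a block as an alternative. Named list genes are called genes with at least 500 UMIs and the largest change, up to 2 in each direction. A gene and sequences that these rules would show are not reported here. Likeness was computed for members with at least 500 UMIs. Intervals of shares and of CPM are exact (Clopper-Pearson, Poisson). Those of log2 fold changes are normal approximations from the SE and can be narrower than the edgeR test implies. A value where no UMI was found is limited by 3 counts. Sequences came from GENCODE M21 and RefSeq, whose promoters matched 10 of 10 members. Reads were not used here.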

Additional observations from a re-analysis of the deposited data

How the results depend on the processing

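From early to pachytene or later spermatocyte-like cells, the number of members called was 2 and became 4 with UMIs per cell and 4 with Leiden clusters. Of all genes, 7082 of 14143 were called in the main fit, 7074 of 14143 with UMIs per cell and 7399 of 14508 with Leiden clusters. The counts below with 1 sum left out are not set against the share of all genes and give no result about the tubulins. Leaving out 1 sum at a time gave 1 to 4, with 1 called without mouse 2 of the pachytene or later cluster and 4 without mouse 2 of the early cluster. The other counts stayed within 1.5 times, at 8 to 9, 7 to 8 and 4 to 7 members and 64 to 72 partner genes when 1 sum was left out. Directions turned for Tuba1a in spermatids against spermatocytes (-0.37 with UMIs per cell, -0.44 with Leiden clusters) and for Tubb4b with UMIs per cell (-0.29 in spermatids against spermatocytes, -0.29 from pachytene to round, -0.70 from round to elongating) and with UMI totals (-0.36 from round to elongating). Without the filter on low counts, Tubb4b had 0.01 in the last comparison. The cause was not tested. With the mouse as a replicate block, 9, 2, 8 and 6 members were called in the 4 comparisons, as without it. Of all 14143 genes, 12179, 7690, 11195 and 8598 were called with the block. It gave 71 against 70 called partner genes, and 23 against 18 neighbours in the orders of levels that differed. Alternatives that count the unnamed cluster as spermatids or spermatocytes were added after seeing the data. Single mice allow no test. Depth limits Tube1, Tubb5 and Tuba1a, which had 156, 87 and 176 UMIs in all.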
